A study of Mus musculus with 5 samples.

Results

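The genes described here encode 10 cell surface molecules through which T cells receive or give costimulation: the CD28 family receptors Cd28 and Icos, the B7 ligands Cd80, Cd86, Cd274 and Pdcd1lg2, the receptors of nectins and nectin-like molecules Cd226, Cd96 and Crtam, and the adhesion receptor Cd2. They were chosen by name, as 10 of the 18193 genes that the array's annotation pairs with at least 1 probe set of their own, and 17 probe sets carry exactly 1 of these names. Expression was measured by 1-colour microarray in 3 cultures of G9C8, a CD8 T cell clone specific for an insulin B chain peptide, each from its own frozen vial, and in 2 cultures of spleen cells from NOD.G9C8 transgenic mice of the NOD/LtJ background, aged 4 to 8 weeks, each from its own mouse. Every culture, 5 in all, was given that peptide (10 µg/ml) over 3 days, followed by 2 days of rest with IL2 (5 IU/ml), so no group was left unstimulated. The clone group represents 1 clone, its genetic background is not given in the labels, and no sort of the spleen cells before RNA extraction is named.

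Full activation of a T cell needs a second signal beside that of the antigen receptor. CD28 gives it on binding CD80 or CD86 on a presenting cell, and ICOS, which appears after activation, does so on binding its own ligand. CD274, known as PD-L1, and PDCD1LG2, known as PD-L2, bind the inhibitory receptor PD-1, and activated T cells can carry them as well as myeloid cells. CD226 and CD96 share the ligand CD155, encoded by Pvr, and CD226 is activating; CRTAM binds the nectin-like molecule encoded by Cadm1, and mouse CD2 binds CD48.

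Cd274 and Pdcd1lg2 are adjacent in the RefSeq annotation, with 0 other protein-coding genes starting between them, and they differed in opposite directions between the groups, as given below. The 250 bases before the RefSeq start of each are shown, followed by those of Cd96, which differed in the same direction as Cd274 by a similar amount. Capitals mark matches to the motifs named after them.
Cd274, GRCm38.p6 chr19:29367188-29367437, plus strand: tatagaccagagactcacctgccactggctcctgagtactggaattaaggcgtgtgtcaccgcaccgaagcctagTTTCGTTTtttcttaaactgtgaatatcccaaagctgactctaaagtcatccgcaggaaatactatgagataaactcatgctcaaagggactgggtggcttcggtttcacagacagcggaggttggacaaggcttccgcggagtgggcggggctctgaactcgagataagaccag
Pdcd1lg2, GRCm38.p6 chr19:29410669-29410918, plus strand: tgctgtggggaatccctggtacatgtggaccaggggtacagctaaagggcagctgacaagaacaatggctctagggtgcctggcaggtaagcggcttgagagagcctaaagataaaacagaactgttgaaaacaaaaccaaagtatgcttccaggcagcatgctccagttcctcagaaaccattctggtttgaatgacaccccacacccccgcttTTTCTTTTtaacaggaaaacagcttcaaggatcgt
Cd96, GRCm38.p6 chr16:46120249-46120498, minus strand: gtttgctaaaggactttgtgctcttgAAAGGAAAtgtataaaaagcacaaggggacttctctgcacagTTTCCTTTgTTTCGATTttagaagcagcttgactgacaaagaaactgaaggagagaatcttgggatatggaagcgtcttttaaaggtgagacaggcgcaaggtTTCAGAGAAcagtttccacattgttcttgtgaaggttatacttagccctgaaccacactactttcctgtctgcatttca
RefSeq's table held such a sequence for 4 of the 10 genes. Both strands were searched for the interferon-linked motifs GAS (TTCNNNGAA) and IRF (AANNGAAA) and for AP-1 (TGANTCA), and the matches did not overlap each other. The Cd274 window held 1 IRF match, 175 to 168 bases before the start, and the Pdcd1lg2 window 1, at 35 to 28 bases. The Cd96 window held 3 IRF matches and 1 GAS match, the latter 79 to 71 bases before the start. At least 1 IRF match was present in 21.3% of the 32851 RefSeq windows of this length, a GAS match in 7.02% and an AP-1 match in 6.75%. These are letter matches only; binding was not measured.

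Signals are array intensities in arbitrary units, all arrays having the same trimmed mean, and are given as mean ± SD. Differences are clone minus transgenic on the log2(signal + 20) scale, which understates those of dim genes. A gene is represented by its brightest probe set and called at an adjusted p under 0.05 in limma, with Benjamini-Hochberg adjustment over 12446 genes. T cell markers were bright in both groups, with Cd3e at 5839 ± 600 in clone and 5102 ± 316 in transgenic cultures and Cd8a at 8808 ± 492 and 14192 ± 1849. The error behind each p-value is that among 3 vials of a single clone and between 2 mice.

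Among the 10 genes, Pdcd1lg2 and Cd226 were higher in clone and Cd2, Cd274 and Cd96 were lower, while Cd28, Icos, Cd80, Cd86 and Crtam were not called. The count of 5 called of 10 stands beside 43.8% called among all genes tested, 2 higher beside 22.0% and 3 lower beside 21.7%. The median absolute difference was 0.67 for the 10 genes and 0.39 for all genes tested. The values of the groups did not overlap for 6 of the 10 genes and for 64.5% of all genes. In the shares called and without overlap the 10 genes lay near the whole array, though not in the size of the differences. An absolute difference of at least 1 was found for 4 of the 10 genes and for 15.1% of all genes tested. The genes were chosen with earlier results of these data known, so the results lie in which members differed and in which direction.

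**Figure D1:**
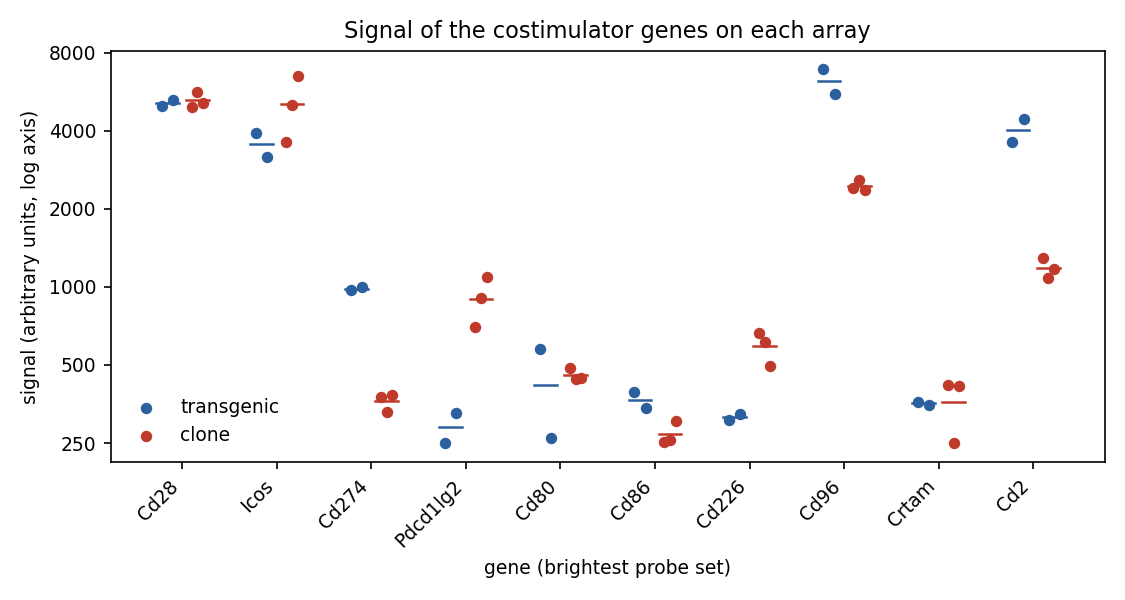
Signal of the brightest probe set of each gene (log axis, arbitrary units) on the 2 transgenic (blue) and 3 clone (red) arrays; each point is 1 array and each line a group mean. Cd274, Cd96 and Cd2 lie lower on all 3 clone arrays, Pdcd1lg2 and Cd226 lie higher, and the groups overlap for Cd28, Icos, Cd80 and Crtam.

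The receptor Cd28 had near-equal signals in both groups. Its brightest probe set gave 4982 and 5272 for the mice and 4932, 5652 and 5116 for the clone vials. The clone values spanned the transgenic ones, and the difference was 0.03 (95% confidence interval -0.18 to 0.24; limma adjusted p = 0.831). The second Cd28 probe set gave 4331 and 4487 in transgenic and 5110, 5993 and 4907 in clone cultures, without overlap, and its difference of 0.27 was not called when every probe set was tested on its own (limma adjusted p = 0.121). The interval of the brightest probe set does not reach the differences of Cd2 or Cd274.

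Icos, the inducible receptor of the family, was higher in clone by 2 of its 3 probe sets, but not by the brightest. One of them gave 2991 and 2544 for the mice and 3996, 5435 and 6128 for the clone vials, a difference of 0.88 (SE 0.18, limma adjusted p = 0.0126 over every probe set). The other gave 1843 and 1563 against 2498, 3817 and 3595, a difference of 0.93 (limma adjusted p = 0.0116). For both, all clone arrays lay above both transgenic arrays. The brightest probe set gave 3929 and 3176 against 3627, 5042 and 6486, so that the first clone array fell between the transgenic ones. Its difference was 0.47 (-0.02 to 0.96, limma adjusted p = 0.108). With the mean over the 3 probe sets the Icos difference was 0.76 and passed the test (limma adjusted p = 0.0136), and without the first clone array the brightest probe set gave 0.69 (limma adjusted p = 0.0111). The brightest probe set gave 0.27 without the third clone array (limma adjusted p = 0.258) and 0.32 without the second transgenic array. The first clone array was the lowest clone array by all 3 probe sets.

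Icos and Cd28 lie in 1 cluster with Ctla4, the gene of an inhibitory receptor that competes with CD28 for its ligands, with 0 other protein-coding genes starting between Cd28 and Ctla4 or between Ctla4 and Icos. Ctla4 was higher in clone (12950 ± 1978 against 8014 ± 330; difference 0.68, limma adjusted p = 0.00279). The other inhibitory relatives were lower: Btla, the receptor of the herpesvirus entry mediator, by a difference of -3.33 and Pdcd1, which encodes PD-1, by -1.44. Pdcd1 was dim, with a mean of 55.8 ± 22 in clone and 186.3 ± 68 in transgenic cultures, and its call was lost without the second transgenic array (limma adjusted p = 0.102).

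The PD-1 ligands gave the clearest contrast among the B7 genes. Cd274 gave 972 and 996 for the mice and 376, 329 and 382 for the clone vials. All 3 clone values were far below both transgenic values, which were nearly equal, and the difference was -1.39 (SE 0.13, -1.69 to -1.10, limma adjusted p = 6.77e-05). Pdcd1lg2 gave 250.0 and 328 for the mice and 703, 908 and 1090 for the clone vials. Here all clone values were higher, with a spread among the vials of 1.55-fold, and the difference was 1.56 (SE 0.20, 1.11 to 2.02, limma adjusted p = 0.000374). Only 3.00% of all genes tested had a difference further toward clone than Pdcd1lg2.

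Within each array, the log2 signal of Pdcd1lg2 minus that of Cd274 was between 0.87 and 1.46 on the clone arrays and between -1.88 and -1.55 on the transgenic arrays. The balance of these probe sets therefore differed by 2.96 between the groups (exact permutation p = 0.200, two-sided, the smallest that 3 against 2 arrays allow; 0.300 adjusted over the 3 pairs compared). The 3 pairs were chosen after the values were seen.

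Genes known to act on the level of PD-L1 were mostly lower in clone, 6 of 9 tested, with 1 higher and 2 not called. Of all genes tested, 21.7% were lower and 22.0% higher. Irf1, a transcription factor induced by interferon, had a difference of -2.25 (1786 ± 73.3 against 8663 ± 1792; limma adjusted p = 5e-06). The kinase genes Jak1 (-1.74) and Jak2 (-1.37), which relay the interferon gamma signal, were also lower. Cmtm6, whose product stabilises PD-L1 at the cell surface, was higher (1.00). The median of the list was -0.62, against -0.01 for all genes tested. Whether these genes bear on the levels of Cd274 or Pdcd1lg2 was not tested, nor was the part of other spleen cells in their values.

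Cd80 was not called and was unevenly measured in the mice. Its brightest probe set gave 574 and 261 for the mice and 489, 442 and 445 for the clone vials, so the clone arrays agreed closely and lay between the mice. The next probe set repeated this, with 218 and 89.3 in transgenic and 193, 189 and 204 in clone cultures. The transgenic arrays thus differed 2.20-fold and 2.45-fold from each other, and the clone arrays by no more than 1.11-fold. The difference of the brightest was 0.23 (-0.40 to 0.86, limma adjusted p = 0.543); without the first transgenic array it was 0.77 and called (limma adjusted p = 0.0227), and without the second it was -0.31 and not called (limma adjusted p = 0.237). The remaining 2 Cd80 probe sets had mean signals below 88.2, the level of the filter on dim probe sets, and reached no more than 99.4 on any array.

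The 2 probe sets of Cd86, the other CD28 ligand, went in opposite directions, although the annotation gives both the same source transcript. The brighter gave 392 and 340 for the mice and 253, 257 and 305 for the clone vials, a difference of -0.41 (-0.78 to -0.03) that was not called (limma adjusted p = 0.0786). The other gave 203 and 222 against 345, 292 and 340, a difference of 0.57 that was called when every probe set was tested (limma adjusted p = 0.0399). In neither did the groups overlap. With their mean, the Cd86 difference was 0.081 (limma adjusted p = 0.683), so no direction is given for this gene.

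**Figure D2:**
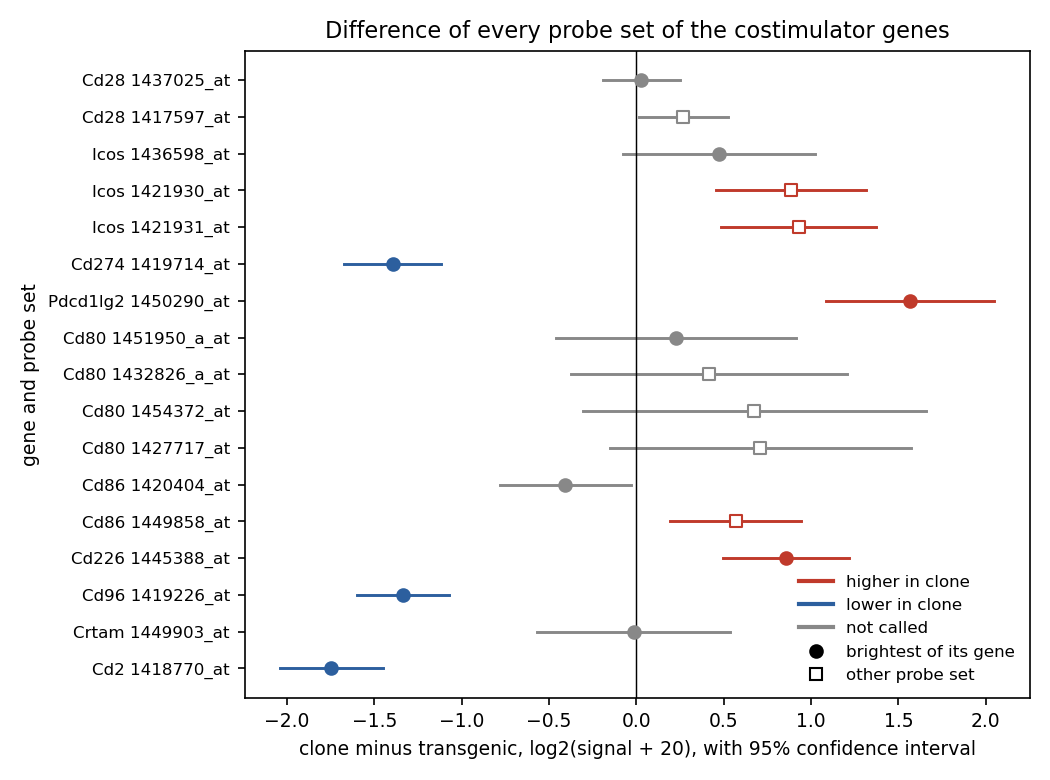
Clone minus transgenic difference on the log2(signal + 20) scale of each of the 17 probe sets, with its 95% confidence interval, from the fit of every probe set; filled circles are the brightest probe set of a gene and open squares the others, coloured by call. The probe sets of Icos lie on 1 side of 0, and the pair of Cd86 lies on opposite sides.

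Of the 17 probe sets, tested each on its own among 45037, 5 were higher, 3 lower and 9 not called. Of all 45037, 24.3% were called, 11.4% higher and 12.9% lower. These sets are unlike in brightness, since the 45037 were not filtered whereas 15 of the 17 passed the filter. Among the 12446 genes that passed it, 43.8% were called. Several of the 17 also belong to the same gene, so no excess is read from these counts. The 2 dim Cd80 probe sets were the only ones of the 17 below the filter level.

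The other B7 relatives and partners that passed the filter were lower in clone, 3 of 3, beside 21.7% of all genes tested. They were the partner gene Tnfrsf14, encoding the herpesvirus entry mediator (-1.43), Vsir, encoding the inhibitory molecule VISTA (-1.42), and Icosl, the ligand gene of ICOS (-0.77). The call of Icosl was lost with the mean over probe sets (limma adjusted p = 0.162), under a replicate block (0.0546), and without the first (0.127) or second transgenic (0.0838) or the third clone array (0.0542). Cd276, Vtcn1 and Btnl2 lay below the filter level.

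B cells, dendritic cells and macrophages also express B7 genes, so their markers were measured. The counts of lower markers below stand beside 21.7% lower among all genes tested. The summed signal of the 8 macrophage and monocyte markers measured was 5302 and 7831 on the transgenic arrays and between 1529 and 1929 on the clone arrays, and 4 of the 6 tested were lower in clone. Lyz2 carried most of that sum on the transgenic arrays (4523 ± 1451) but not on the clone arrays (279 ± 45.1). Cd68 (675 ± 135 in clone against 472 ± 104) and Fcgr1 (192 ± 16.4 against 147.0 ± 1.41) were not called. The 7 dendritic cell markers summed to 1751 and 2070 against 692 to 740, with 3 of 6 lower. The 6 B cell markers summed to 1685 and 1540 against 804 to 1153, with 1 of 5 lower, Cd79b. Without Cd79b, a sum added after the values were seen, they gave 1030 and 946 against 773, 860 and 1107, and the groups overlapped. In clone cultures the mean signals of Cd14 (40.4), H2-Ab1 (21.1) and Cd79b (26.7) lay below the filter level, and those of Csf1r (339.8), Cd22 (296) and Pax5 (217) above it. The natural killer cell markers measured, Ncr1 and Klra8, had mean signals below it in both groups. The T cell markers too summed higher in transgenic cultures, 67320 and 59870 against 45756 to 52623, with 3 of 6 lower in clone, Cd3d, Cd8a and Cd8b1. Macrophage and dendritic cell sums were higher and the B cell sum lower on the second transgenic array, where Cd80 was lower. Cd274 differed by 1.02-fold between these arrays. The dendritic cell markers did not all follow their sum. Itgax gave 368 on the first and 800 on the second transgenic array, whereas H2-Ab1 gave 734 and 499, lower on the second as Cd80 was. The order of that sum therefore rests on Itgax, and no relation of Cd80 to dendritic cell content is drawn from it. Pdcd1lg2 was higher in clone, where the macrophage and dendritic cell sums were lower. Within the transgenic pair it was higher on the second array, where both sums were higher. Among the vials it was lowest on the first, with the lowest macrophage sum, and highest on the third, with the lowest dendritic cell sum. The part of such cells in the Cd274, Pdcd1lg2, Cd80, Cd86, Icosl, Vsir and Tnfrsf14 values was not tested. Nor was it tested for the other genes described here, Pvr, Cadm1 and Cd48 among them. In these cultures fewer cells of a type and less RNA per cell cannot be told apart.

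**Figure D3:**
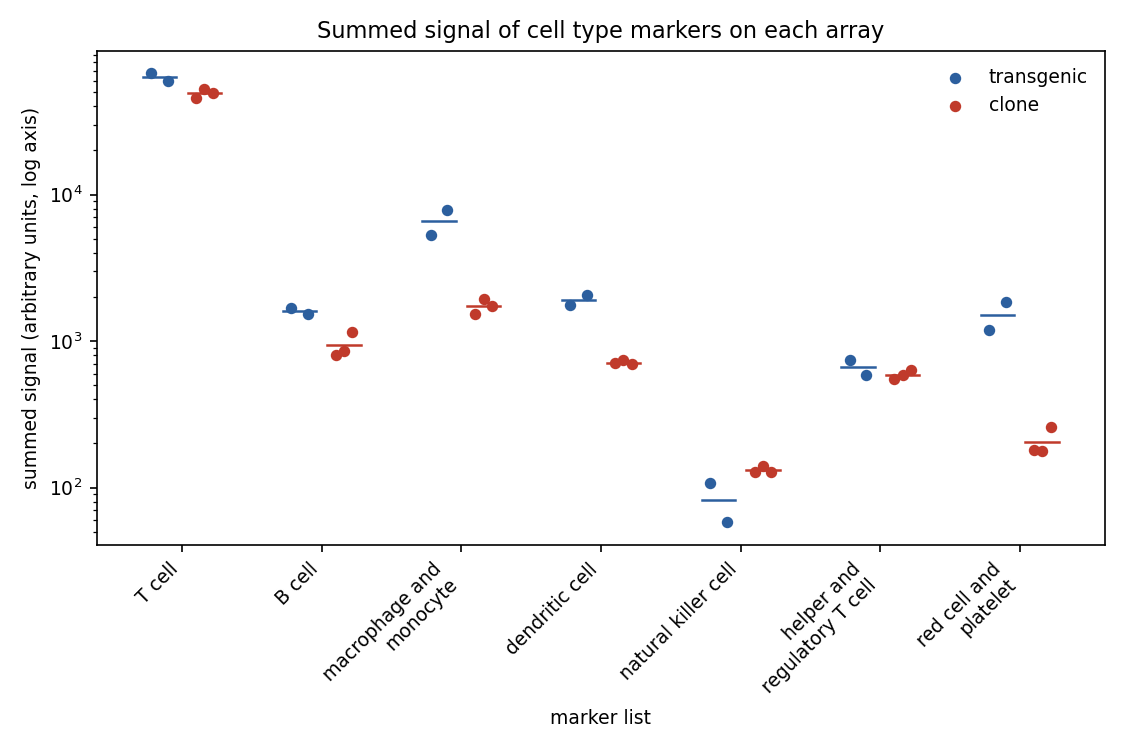
Summed signal (log axis, arbitrary units) of the markers of 7 cell types on each array, transgenic in blue and clone in red, with lines at the group means. The sums of T cell, B cell, macrophage, dendritic cell and red cell and platelet markers are higher on both transgenic arrays, that of natural killer cell markers is lower, and the groups overlap for helper and regulatory T cell markers.

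Cd226 and Cd96, the receptor genes compared here whose products share CD155, differed in opposite directions. Cd226 gave 308 and 322 for the mice and 663, 613 and 496 for the clone vials. All clone values were higher, and the difference was 0.86 (SE 0.16, 0.50 to 1.22, limma adjusted p = 0.00256). Cd96 gave 6892 and 5565 for the mice against 2396, 2580 and 2361 for the clone vials. It was lower on every clone array, by a difference of -1.33 (SE 0.11, -1.59 to -1.08, limma adjusted p = 3.58e-05). The log2 signal of Cd226 minus that of Cd96 was -2.02 ± 0.19 in clone and -4.21 ± 0.26 in transgenic cultures. The difference was 2.19 (exact permutation p = 0.200, two-sided, again the smallest that these arrays allow, and 0.300 adjusted over the 3 pairs). For Icos minus Cd28 it was 0.45 (exact permutation p = 0.400, two-sided; 0.400 adjusted).

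Crtam, a receptor that appears on CD8 T cells after activation, was not called. It gave 361 and 352 for the mice and 420, 249 and 414 for the clone vials. The second clone array was low and the others high, on either side of the transgenic pair, and the difference was -0.02 (-0.54 to 0.50, limma adjusted p = 0.964). The interval is wide enough to hold the difference seen in the brightest probe set of Icos.

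On the ligand side, 3 of 5 tested genes were lower in clone, beside 21.7% of all genes tested, and 2 were not called. Pvr, the gene of CD155, gave a mean of 192.9 ± 66.4 in clone and 463 ± 14.1 in transgenic cultures (-1.23, limma adjusted p = 0.00586). Cadm1, the ligand gene of CRTAM, was lower too (-1.16), as was Nectin3, an adhesion molecule of cell junctions (-0.96). Nectin4 lay below the filter level. The call of Nectin3 was lost under 9 of 16 alternatives, among them quantile normalization (limma adjusted p = 0.0652) and leaving out the first transgenic array (0.303), and that of Cadm1 without the second transgenic array (0.0658). With a stricter filter, at the 60th percentile of mean signal, only 2 of these genes were tested and 1 was called.

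Cd2, which strengthens the contact of a T cell with its partner, had the largest absolute difference of the 10 genes. It gave 3609 and 4444 for the mice and 1297, 1079 and 1175 for the clone vials. Every clone array was below both transgenic arrays by more than the spread within either group, and the difference was -1.75 (SE 0.12, -2.03 to -1.46, limma adjusted p = 1.65e-05), a 3.35-fold lower level on this scale. Its partner genes were lower in 3 of 5 and not called in 2, where 21.7% of all genes tested were lower. Cd48, the ligand of CD2 in mice, gave 4217 ± 149 against 9507 ± 181 (-1.17), and Cd2bp2, whose product was named for binding the CD2 tail, had a difference of -0.54. Cd244a, a second receptor of CD48, gave 249 and 334 for the mice but only 12.6 to 17.5 for the vials, below the pseudocount, so that its difference of -3.16 depends on that setting (-4.23 with a pseudocount of 1 and -2.39 with 50).

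**Figure D4:**
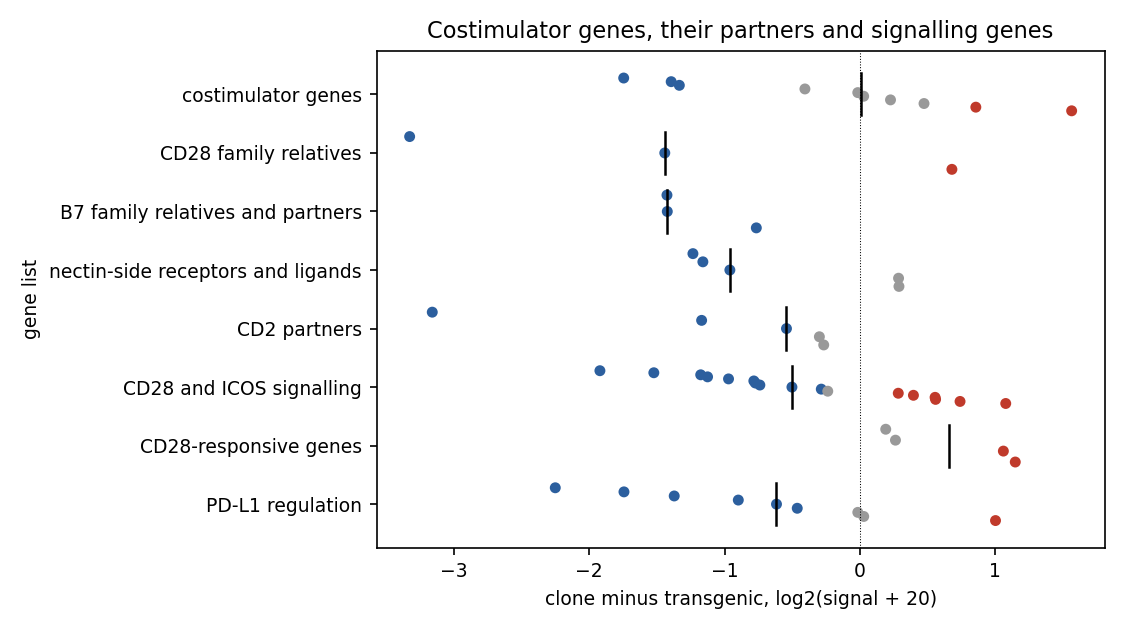
Clone minus transgenic difference on the log2(signal + 20) scale of each tested gene of the 10 costimulator genes and of 7 lists of relatives, partners and signalling genes; red is called higher, blue called lower, grey not called, and black bars are list medians. The bar lies left of 0 for 6 of the lists and right of 0 for the CD28-responsive genes.

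Genes that carry the signal of CD28 and ICOS were called in both directions, 10 lower, 6 higher and 1 not called of 17 tested, with a median of -0.50. The shares over all genes tested were 21.7% lower and 22.0% higher. Prkcq, encoding protein kinase C theta, which is recruited to CD28, had the largest difference (-1.92; 1354 ± 178 against 5151 ± 35.9). The regulatory subunit gene of phosphoinositide 3-kinase, Pik3r1 (-1.52), the kinase gene Pdpk1 (-1.18) and the Src family kinase gene Fyn (-1.13) were lower as well. The largest difference toward clone was that of Malt1 (1.08), a protease of the pathway to NF-kB, named after its values were seen. Of 4 tested genes that respond to CD28, Il2ra, the alpha chain gene of the IL2 receptor (1.15), and the glucose transporter gene Slc2a1 (1.06) were higher and 2 were not called. Il2 lay below the filter level in both groups.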

How the data were processed

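Total RNA (8 µg per culture) was labelled with biotin and hybridised to Affymetrix mouse arrays, per the labels' protocols. The deposited values are array intensity, 1 signal per probe set, from GCOS, per the submitters' processing notes; no detection calls were used. Their 2% trimmed mean is 500.0 on each array, so they were not normalized further. Median signals were 132.3 to 141.9, and precision is limited by how few arrays there are. Of 45101 probe sets, 64 controls were left out; 34945 have 1 gene symbol, 932 several and 9160 none, and only the first name a gene. Probe sets with a mean signal of at least 88.2 (the 40th percentile) were kept, the brightest for each gene. All 10 genes and 15 of their 17 probe sets passed. Groups, taken from the titles, were compared with limma 3.58.1 in R 4.3.3 (lmFit, eBayes with intensity trend) on log2(signal + 20), two-sided, without a block. Every probe set was also fitted on its own, without a filter. The fit was tested on simulated data.

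The members and lists were chosen with earlier results of these data known. Named genes are all members and up to 4 called genes of each list with the largest differences. Of 58 listed partner and signalling genes, 46 were tested, 5 lay below the filter and 7 were not analysed here; so were 4 of 41 cell type markers. Alternatives were 17: another normalization, pseudocount or floor, filter, choice of probe sets or variance model, a block for the replicate number, and leaving out 1 array at a time. Promoter sequences are RefSeq's, build GRCm38.p6, cut to the 250 bases before the start; the build behind the arrays is not given in the sources used here. Plots used matplotlib 3.10.9 under Python 3.11.15.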

Additional observations from a re-analysis of the deposited data

How the results depend on the processing

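The calls of Cd2, Cd226, Cd274, Cd96 and Pdcd1lg2 kept their direction and passed the test under all 17 alternatives, with adjusted p up to 0.0247 for Cd226 (limma). Each of these genes has 1 probe set, so the filters, choices of probe sets and variance models could change only its adjusted p. The replicate block gave the same differences as leaving out the third clone array, so the alternatives are not independent. Of 170 comparisons of a member with an alternative, 159 kept direction and side of the threshold, 3 gained a call and 8 changed sign. The gains were Icos with the mean over probe sets (0.76) and without the first clone array (0.69), and Cd80 without the first transgenic array (0.77). The sign changes were all in uncalled genes: Cd28 (-0.10) and Crtam (0.10) under quantile normalization, Cd86 with the mean over probe sets (0.081), and, with an array left out, Cd28 (-0.029 to 0.069), Cd80 (-0.31 to 0.77) and Crtam (-0.14 to 0.22); the cause was not tested. The number of members called was 5 or 6 throughout. Clone vials and mice share only replicate numbers: with the replicate block 5 members were called, 2 higher and 3 lower, and 33 pathway genes in place of 37. Without the first or second transgenic array 30 and 31 pathway genes were called, and 31 of 39 tested with the stricter filter; over the 17 alternatives the number was 30 to 37. Deviations of arrays of the same number correlated at -0.03 and -0.08 across genes. With 2 transgenic arrays their deviations mirror each other, so this cannot exclude a pairing, and none was assumed in the main fit. With 3 and 2 arrays, the intervals of Crtam and Cd80 span over 1 log2 unit.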
